A study of Mus musculus with 6 samples.

Results

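Akr1c18 and 6 other genes of steroid conversion were followed across mouse T helper cells cultured under Th17 conditions with or without pemafibrate. The 7 genes were taken by symbol from the 24421 genes of the deposited expression table: the aldo-keto reductase genes Akr1c18, Akr1c12, Akr1c13 and Akr1c14, the cholesterol side-chain cleavage gene Cyp11a1, and the steroid reductase family genes Srd5a1 and Srd5a3. Naive CD4 T cells of WT genotype had been isolated from splenocytes and cultured in IMDM with 10% serum under conditions that favour Th17 cells, which are named for their cytokine interleukin 17. One group of 3 samples received 10 nM pemafibrate, a drug that activates PPARalpha, until day 2, and the other 3 were labelled vehicle; culture went on for 2 days more. The samples are named by the numbers in their titles, which are 3, 4 and 7 for vehicle and 3, 7 and 8 for pemafibrate. The labels give no age, sex or animal for any sample, so the spread between samples may be technical.

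The genes were chosen with the comparison already known. Akr1c18 was among the genes that limma called higher after pemafibrate (limma adjusted p = 0.0147 over all genes tested), and the genes were chosen by that comparison of the same 6 samples. The call was lost with the title number as a block (limma adjusted p = 0.137), with no filter on low values (0.0858), and without vehicle 3 (0.0915), pemafibrate 7 (0.0901) or pemafibrate 8 (0.0579). In the block fit vehicle 4 and pemafibrate 8 did not inform the difference, as no other sample has their number. In the same fit that called Akr1c18, limma called no other member. As the comparison chose the 7 genes, their differences between the groups are given as a description, with no test.

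Steroid hormones are made from cholesterol. Cyp11a1 cuts the cholesterol side chain in mitochondria to give pregnenolone, which 3-beta-hydroxysteroid dehydrogenases turn into progesterone. Enzymes of the AKR1C family reduce ketone groups on steroids with NADPH, and mouse Akr1c18 encodes the enzyme that inactivates progesterone, best known from the ovary at the end of pregnancy. The product of Akr1c14 is a 3-alpha-hydroxysteroid dehydrogenase. Srd5a1 encodes a 5-alpha reductase of progesterone, testosterone and related steroids, whereas the product of Srd5a3 reduces polyprenol to dolichol, the lipid carrier of N-linked glycans. T cells are known to make some of these enzymes: the activity of the Akr1c18 enzyme has long been used as a marker of interleukin 3 action on lymphoid cells, and Cyp11a1 is known from Th2 cells that make pregnenolone.

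The deposited values are RPKM, read numbers divided by gene length and library depth, and their steps imply libraries of 14935351 to 18322467 reads. Over the 11360 genes that averaged 0.5 RPKM or more, samples of 1 group correlated at 0.992 to 0.993 (Pearson, log2(RPKM + 0.5)) and samples of different groups at 0.990 to 0.992; the points are genes, which are not independent replicates. The 4 T cell markers in the table (Cd3d, Cd3e, Cd3g and Cd4) summed to between 615 and 640 RPKM in every sample. The summed level of 5 Th17 markers was 1790 to 1987 RPKM in vehicle and 1339 to 1630 RPKM in pemafibrate. Il17f made up most of that sum, while Ccr6, a chemokine receptor gene of the same list, was higher after pemafibrate (22.2 to 24.0 against 32.5 to 34.8 RPKM). The part of these markers in the results below was not tested. The 5 macrophage markers summed to 9.09 to 11.9 RPKM in vehicle and 7.71 to 13.6 RPKM in pemafibrate. Lyz2 (4.32 to 8.95 RPKM) and Cd68 (2.76 to 4.51 RPKM) made up most of that sum, with Adgre1 and Csf1r at most 0.219 RPKM in any sample. The 4 B cell markers summed to 4.58 to 5.14 and 4.80 to 5.62 RPKM. For CD8 T cells, the 2 markers Cd8a and Cd8b1 summed to 4.86 to 6.52 RPKM in vehicle and 5.52 to 6.98 RPKM in pemafibrate.

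The 4 AKR1C genes lie within 1 gene cluster on mouse chromosome 13 (GRCm38), in the order Akr1c14, Akr1c18, Akr1c13 and Akr1c12. RefSeq places Akr1c14 at chr13:4048991-4090560 on the plus strand, Akr1c18 at chr13:4132615-4150646 on the minus strand, Akr1c13 at chr13:4191168-4205604 on the plus strand and Akr1c12 at chr13:4268172-4279399 on the minus strand. Srd5a1 lies far off on the same chromosome (chr13:69573449-69611485, minus strand), Cyp11a1 at chr9:57998024-58027031 and Srd5a3 at chr5:76140273-76155503, both on the plus strand. The 250 bases before the start of the 3 detected AKR1C genes are shown because these genes had higher values after pemafibrate, with Akr1c18 set apart in sequence from the other two. They come from RefSeq (GRCm38.p6) and end at a transcript start, which for Akr1c13 lies slightly inside the gene's full span, so the last bases of that stretch are within the span. They are written 5′ to 3′ on the strand of the gene and cover chr13:4150647-4150896 for Akr1c18, chr13:4279400-4279649 for Akr1c12 and chr13:4190937-4191186 for Akr1c13. Capitals mark the bases in which Akr1c12 and Akr1c13 differ from each other, 11 in the former and 12 in the latter.
Akr1c18: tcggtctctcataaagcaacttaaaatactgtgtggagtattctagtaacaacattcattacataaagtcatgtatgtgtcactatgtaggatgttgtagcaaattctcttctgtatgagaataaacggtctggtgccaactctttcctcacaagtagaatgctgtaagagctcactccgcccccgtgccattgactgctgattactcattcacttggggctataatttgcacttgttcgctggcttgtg
Akr1c12: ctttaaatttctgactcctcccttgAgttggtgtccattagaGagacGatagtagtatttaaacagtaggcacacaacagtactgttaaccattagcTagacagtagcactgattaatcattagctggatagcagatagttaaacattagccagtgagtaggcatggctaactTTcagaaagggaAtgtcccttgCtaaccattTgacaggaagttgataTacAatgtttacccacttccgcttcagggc
Akr1c13: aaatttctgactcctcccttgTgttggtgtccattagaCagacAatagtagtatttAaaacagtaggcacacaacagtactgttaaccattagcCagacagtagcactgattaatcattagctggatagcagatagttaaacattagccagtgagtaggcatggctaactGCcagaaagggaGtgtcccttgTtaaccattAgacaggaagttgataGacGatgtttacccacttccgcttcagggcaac

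The upstream stretches of Akr1c12 and Akr1c13 were identical at 235 of 247 aligned positions (95.1%), while that of Akr1c18 matched them at 51.6% and 48.5% of aligned positions, a level near the 48.4% and 47.4% at which the Akr1c14 stretch aligned with theirs. The reading frames followed the same pattern: the longest open reading frames of Akr1c12 and Akr1c13, 972 bases each, were identical at 96.2% of positions, and Akr1c18 shared 73.9% with Akr1c12, 74.0% with Akr1c13 and 76.0% with Akr1c14. In windows from 250 bases before to 50 after each start, searched on both strands, the direct repeat of AGGTCA with 1 base between the copies, the element bound by PPAR with RXR, was in none of the 7 genes' windows and in 0.0396% of all 32851 windows of that length. The single unit AGGTCA, which is part of that repeat, was found at position 28 after the start of Akr1c18 and at position -28 in 1 of the windows of Cyp11a1, and 16.3% of all windows hold it. The antioxidant response core TGACNNNGC was found in the Srd5a3 window at position -45 (12.4% of all windows). The glucocorticoid and progesterone receptor palindrome, AGAACA and its reverse complement 3 bases apart (0.00913% of all windows), its unit AGAACA (19.0%), the STAT palindrome TTCNNNGAA (8.3%), the AP-1 motif TGANTCA (7.81%) and TATAAA (13.6%) were in none of the 7 genes' windows. A match is only a description of the letters, and a missing one says nothing about a factor.

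Akr1c18, the progesterone-inactivating enzyme gene, had the highest level of the 7 genes after pemafibrate. It measured 23.0, 20.9 and 27.1 RPKM in vehicle 3, 4 and 7 and 45.0, 41.1 and 43.4 RPKM in pemafibrate 3, 7 and 8. The groups did not overlap: vehicle 7, the highest vehicle sample, lay well under pemafibrate 7, the lowest treated one. The means were 23.7 ± 3.16 and 43.2 ± 1.93 RPKM (SD, n = 3 each), a ratio of 1.82, and the log2 difference on log2(RPKM + 0.5) was 0.86 ± 0.09 (SE). In reads the gene had 489, 419 and 550 in vehicle against 966, 720 and 898 in pemafibrate. Its spread between vehicle samples was 13.3% of the mean, where counting alone gives 4.54%; in pemafibrate these were 4.48% and 3.41%. Of all 11360 genes tested, limma called 0.132% higher and 0.220% lower in pemafibrate, 0.352% in all, and 7.67% had all treated samples above all vehicle samples. As these are bulk samples, more cells with Akr1c18 RNA and more Akr1c18 RNA per cell cannot be told apart.

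**Figure D1:**
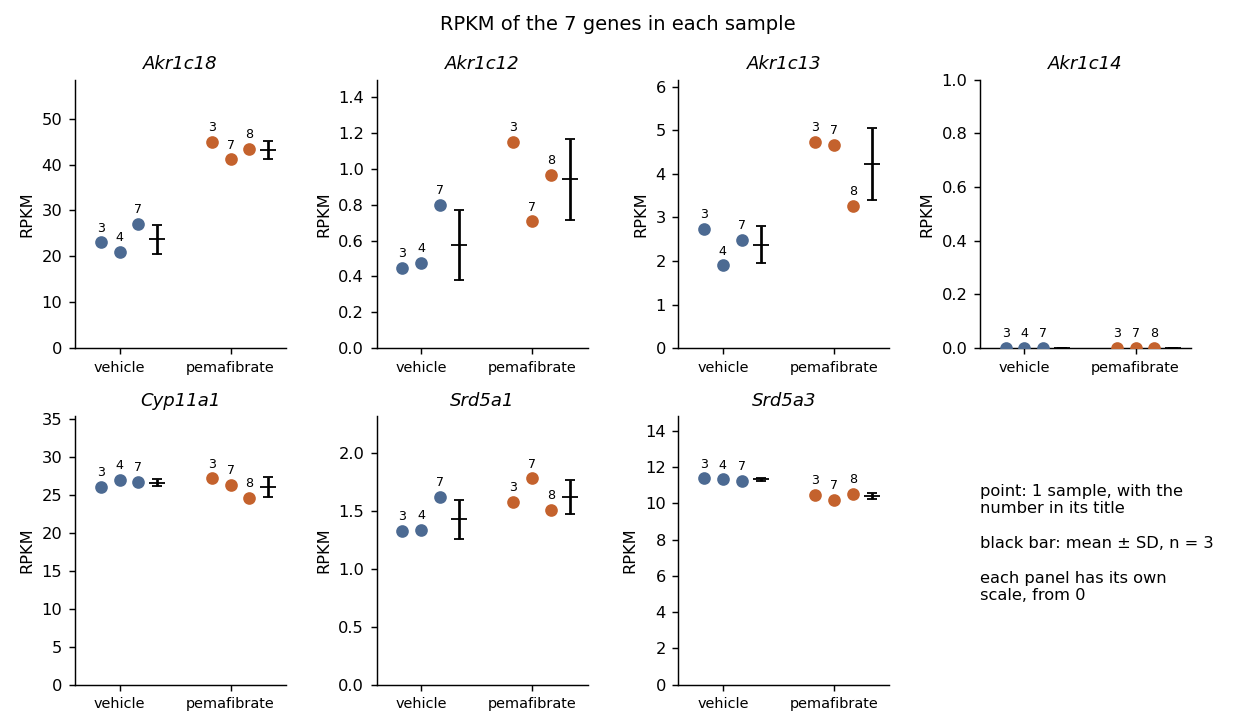
RPKM of the 7 genes in each of 3 vehicle (blue) and 3 pemafibrate (orange) samples, with the title number over each point and the mean ± SD in black; each panel has its own axis from 0. Akr1c18 lies between 20.9 and 27.1 RPKM in vehicle and between 41.1 and 45.0 RPKM in pemafibrate, Cyp11a1 stays between 24.6 and 27.2 RPKM, and Akr1c14 is listed at 0 throughout.

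Akr1c13, an aldo-keto reductase gene 40.5 kb from the start of Akr1c18, was far lower in level and differed in the same direction. It measured 2.74, 1.90 and 2.49 RPKM in vehicle 3, 4 and 7 and 4.74, 4.67 and 3.26 RPKM in pemafibrate 3, 7 and 8. Pemafibrate 8 was the low sample of its group, and the groups did not overlap, as in 7.67% of all genes tested in this direction. The means were 2.37 ± 0.429 and 4.23 ± 0.834 RPKM (SD, n = 3 each), a ratio of 1.78 against 1.82 for Akr1c18, with a log2 difference of 0.71 ± 0.16 (SE). The ratio of Akr1c13 to Akr1c18 RPKM ran from 0.0908 to 0.119 in vehicle and from 0.0752 to 0.114 in pemafibrate, so it overlapped between the groups.

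Akr1c12, the nearest relative of Akr1c13, was barely above the filter on low values. It measured 0.449, 0.475 and 0.798 RPKM in vehicle 3, 4 and 7 and 1.15, 0.707 and 0.966 RPKM in pemafibrate 3, 7 and 8. Vehicle 7 lay above pemafibrate 7, so the groups overlapped. The gene had 10 to 17 reads per sample in vehicle and 13 to 26 in pemafibrate, and the exact 95% Poisson interval of a single sample, which covers counting error only, spanned 0.215 to 0.825 RPKM in vehicle 3 and 0.753 to 1.69 RPKM in pemafibrate 3. The log2 difference was 0.43 ± 0.18 (SE), on a scale that understates the change of low genes. In the authors' deposited table the log2 fold changes of Akr1c18, Akr1c13 and Akr1c12 were 0.86, 0.82 and 0.72, from the same 6 libraries.

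Reads of Akr1c12 and Akr1c13 can be hard to assign, and those of Akr1c18 less so. In GENCODE transcripts of the same build, 28.6% of the 50-base windows of Akr1c13 also occur in transcripts of other genes, all of these in Akr1c12, and 11.5% of its 100-base windows. For Akr1c18 the shares were 0.608% at 50 bases and 0 at 100. The read length and the treatment of reads with several matches are not stated in the labels, so the levels of Akr1c12 and Akr1c13 are uncertain. Their summed RPKM was 2.37 to 3.29 in vehicle and 4.23 to 5.89 in pemafibrate, without overlap.

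Akr1c14, the 3-alpha-hydroxysteroid dehydrogenase gene, was listed at 0 in all 6 samples. None of the 50-base windows of its transcript with the longest reading frame occurs in another gene's transcripts, but its annotated exons, over all its transcripts, share 234 bases with the pseudogene Gm18857 on the same strand. A listed 0 has limits in this table, because the widely expressed aldo-keto reductase gene Akr1b3 is also listed at 0, and 86.2% of its 50-base windows occur elsewhere. Among the 4 AKR1C members Akr1c18 made up 87.9% to 89.8% of the summed RPKM in vehicle and 88.4% to 91.1% in pemafibrate.

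Cyp11a1, which starts steroid synthesis from cholesterol, was as abundant as Akr1c18 in vehicle and did not follow it. It measured 26.1, 27.0 and 26.7 RPKM in vehicle 3, 4 and 7 and 27.2, 26.3 and 24.6 RPKM in pemafibrate 3, 7 and 8. The vehicle values all lay within the range of the treated ones, with pemafibrate 8 the lowest of the 6. The means were 26.6 ± 0.478 and 26.0 ± 1.28 RPKM (SD, n = 3 each), and the log2 difference was -0.03 ± 0.05 (SE). The spread between vehicle samples, 1.80% of the mean, was under the 3.48% that counting alone gives. Cyp11a1 shares 145 exon bases with the noncoding gene Gm17322 on the same strand. The ratio of Akr1c18 to Cyp11a1 RPKM was 0.884, 0.774 and 1.02 in vehicle 3, 4 and 7. In pemafibrate 3, 7 and 8 it was 1.66, 1.57 and 1.76, above every vehicle sample. As Cyp11a1 hardly differed, the ratio follows Akr1c18, which was chosen by this comparison, and is only a description.

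**Figure D2:**
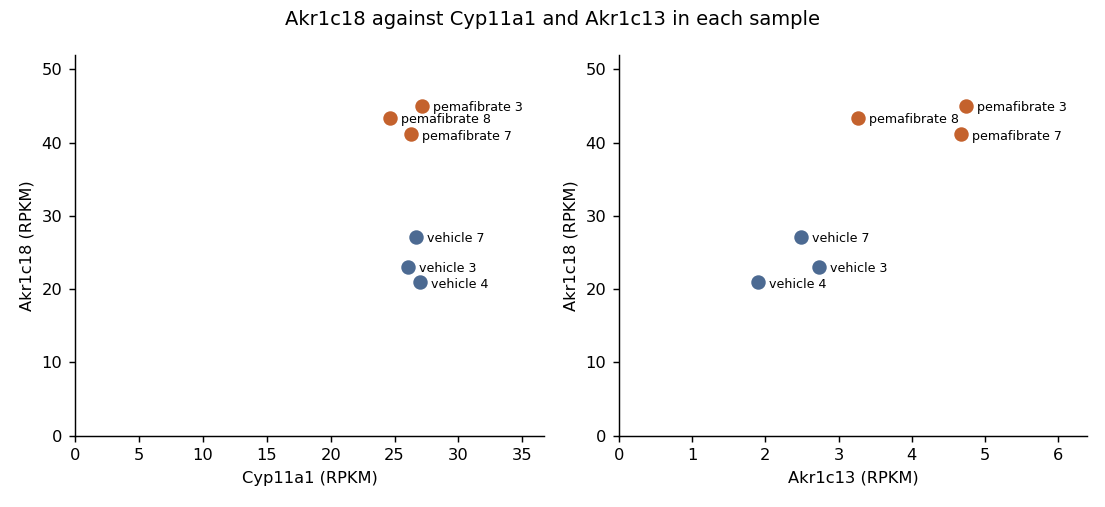
Akr1c18 RPKM (vertical axis) against Cyp11a1 RPKM (left) and Akr1c13 RPKM (right) in each vehicle (blue) and pemafibrate (orange) sample, all axes from 0. Along the Cyp11a1 axis the samples share a range of 24.6 to 27.2 RPKM, while the 3 treated samples lie above the 3 vehicle samples for both Akr1c18 and Akr1c13.

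Cells that are known to carry Cyp11a1 or Akr1c18 RNA in other settings were looked for by their markers. The 10 mast cell and basophil markers summed to 1.36 to 2.17 RPKM in vehicle and 1.15 to 1.60 RPKM in pemafibrate. Kit was the highest of them in every sample, at 0.492 to 0.864 RPKM. Mcpt4, Cma1 and Tpsb2 were listed at 0 in every sample, and Cpa3 was at most 0.418 RPKM. Their part in the Cyp11a1 and Akr1c18 values was not tested. The 8 markers of Leydig, ovarian and adrenal steroid cells summed to 9.59 to 14.3 RPKM in vehicle and 8.46 to 10.7 RPKM in pemafibrate. Of that list, Cyp19a1, Cyp11b1 and Lhcgr were listed at 0, and Insl3 gave most of the sum, with 7.23 to 13.1 RPKM. Insl3 shares 404 exon bases with Jak3, a kinase gene at 119 and 110 RPKM in vehicle and pemafibrate.

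Srd5a1, the steroid 5-alpha reductase gene, was low and its groups overlapped. It measured 1.33, 1.34 and 1.63 RPKM in vehicle 3, 4 and 7 and 1.58, 1.78 and 1.51 RPKM in pemafibrate 3, 7 and 8. Vehicle 7 lay above pemafibrate 3 and pemafibrate 8. The log2 difference was 0.14 ± 0.11 (SE), with 61 to 77 reads per sample. The span of Srd5a1 lies inside that of Nsun2 on the opposite strand, at 99.4 and 102 RPKM, but the annotated exons of the pair do not overlap, and 16.5% of the 50-base windows of Srd5a1 occur in the overlapping transcript Gm17108.

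Srd5a3, the polyprenol reductase gene, was slightly lower after pemafibrate with little spread in either group. It measured 11.4, 11.3 and 11.2 RPKM in vehicle 3, 4 and 7 and 10.5, 10.2 and 10.5 RPKM in pemafibrate 3, 7 and 8. The groups did not overlap, as in 7.31% of all genes tested in this direction. The means were 11.3 ± 0.0625 and 10.4 ± 0.173 RPKM (SD, n = 3 each), a ratio of 0.918, and the log2 difference was -0.12 ± 0.04 (SE). The spread was 0.553% of the mean in vehicle and 1.66% in pemafibrate, against 5.35% and 5.66% from counting alone. The closeness of the 3 values in each group thus goes beyond what 269 to 364 reads can resolve. With voom, fitted on read numbers recovered from the RPKM, the log2 difference had a larger SE (-0.12 ± 0.07).

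On the RPKM scale, which accounts for gene length, the vehicle levels ran in the order Cyp11a1, Akr1c18, Srd5a3, Akr1c13, Srd5a1, Akr1c12 and Akr1c14. Cyp11a1 and Akr1c18 did not differ beyond their spread in vehicle, since vehicle 7 had slightly more Akr1c18 than Cyp11a1. Each other pair of neighbours in that order had ranges that did not overlap in vehicle. After pemafibrate the order was Akr1c18, Cyp11a1, Srd5a3, Akr1c13, Srd5a1, Akr1c12 and Akr1c14, with no overlap between neighbours. By mean level Akr1c18 stood at percentile 83.5 of the genes above 0, Cyp11a1 at percentile 79.8 and Akr1c12 at percentile 35.2.

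Along the cluster, RNA was seen at few of its genes. Akr1e1, the aldo-keto reductase gene at the far end, 459 kb from the start of Akr1c18, measured 10.4, 9.39 and 9.92 RPKM in vehicle 3, 4 and 7 and 12.1, 10.7 and 10.7 RPKM in pemafibrate 3, 7 and 8. Its groups did not overlap, and its log2 difference of 0.16 ± 0.07 did not pass (limma adjusted p = 0.495 over all genes). Akr1c6, Akr1c19 and Akr1c21 were listed at 0 in every sample, and Akr1c20 had 1 read in vehicle 3 alone. The relative Akr1cl, outside the cluster, was also listed at 0. Outside the cluster, Net1, a guanine nucleotide exchange factor gene on the other side, had a log2 difference of -0.06 ± 0.05, and Asb13 and Gdi2 farther out had -0.01 ± 0.09 and 0.07 ± 0.05; none of the 3 passed (limma adjusted p = 0.767, 0.985 and 0.755).

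**Figure D3:**
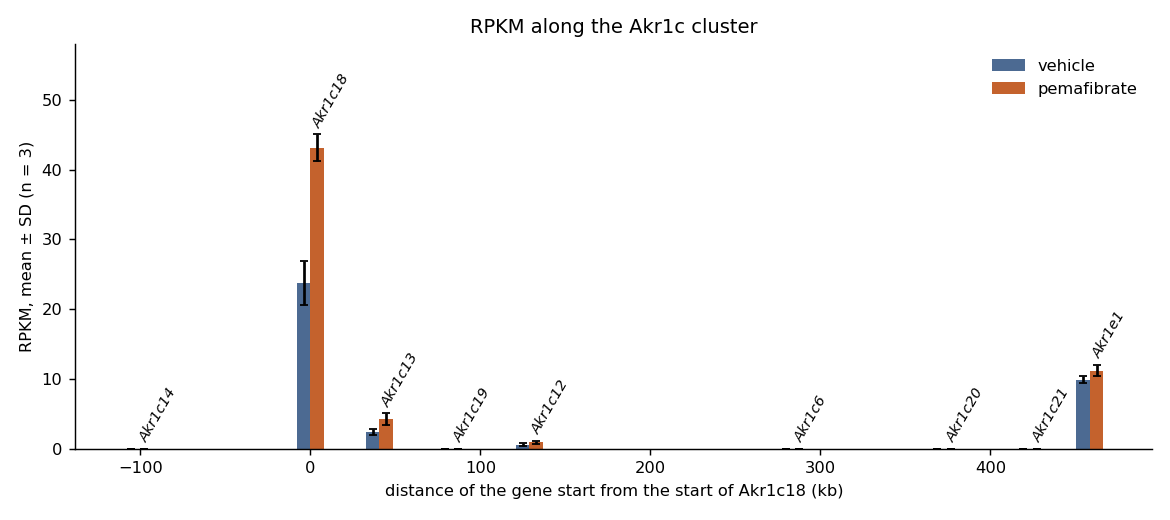
Mean RPKM ± SD (n = 3) of the aldo-keto reductase genes on chromosome 13 in vehicle (blue) and pemafibrate (orange), by the distance of each gene's start from that of Akr1c18 in kb. Akr1c18 stands at 23.7 and 43.2 RPKM at 0 kb, Akr1c13 and Akr1c12 stand at up to 4.23 RPKM beside it, and genes listed at 0 or near it separate them from Akr1e1 at 9.92 and 11.2 RPKM.

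None of the listed genes around the members was called by limma. In 9 lists, of steroid-handling enzymes and receptors, hormone response genes and interleukin 3 and type 2 cytokine genes, written with earlier results of these data known, 63 of 109 genes were tested and limma called 0 over all genes, against 0.352% of all genes tested. At an unadjusted limma p under 0.05 there were 11, or 17.5% against 9.67% of all genes, and voom on the recovered reads called 1 (1.25% of all genes under voom). The groups of 13 genes did not overlap, 7 higher and 6 lower, or 20.6% against 15.0% of all genes. The median log2 difference of the 63 was 0.0053, against 0.0052 for all genes tested.

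Genes that bring cholesterol to Cyp11a1 and feed it electrons were present, while the genes for the next step were not seen. Fdxr, the ferredoxin reductase that passes electrons from NADPH, measured 15.4, 15.6 and 15.7 RPKM in vehicle 3, 4 and 7 and 17.7, 16.6 and 16.7 RPKM in pemafibrate 3, 7 and 8, without overlap (log2 difference 0.12 ± 0.04, limma adjusted p = 0.402). Fdx1, the ferredoxin itself, measured 7.55 ± 0.934 and 7.99 ± 0.514 RPKM (n = 3 each, limma adjusted p = 0.846). Star, which moves cholesterol into mitochondria, stood at 0.827 to 1.20 RPKM in all samples, and Stard4, a cytosolic sterol carrier, at 41.4 and 45.9 RPKM (limma adjusted p = 0.406). Stard5, another sterol carrier, had a log2 difference of -0.08 ± 0.09. Hsd3b1, Hsd3b2, Hsd3b3 and Hsd3b6, the 3-beta-hydroxysteroid dehydrogenase genes that make progesterone, were listed at 0 in every sample. The shares of their 50-base windows found in other genes' transcripts were 5.58%, 35.8%, 35.1% and 18.8% in that order, so most windows of each belong to that gene alone. Cyp11b1, Cyp11b2 and Cyp19a1 were also listed at 0, and Cyp17a1 stayed at or below 0.0900 RPKM. Of the 18 genes of this synthesis list 9 were tested, 7 above 0 and 2 below, with a median log2 difference of 0.02.

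Other dehydrogenase, reductase and conjugation genes had no call. For comparison, 9.67% of all genes tested had an unadjusted limma p under 0.05, and 15.0% had groups that did not overlap. Of 9 tested hydroxysteroid dehydrogenase and related genes 5 lay above 0 and 4 below (median log2 difference 0.0039), with 1 at an unadjusted p under 0.05: Rdh11, a retinol dehydrogenase gene, at 24.2 and 26.9 RPKM (log2 difference 0.15 ± 0.05, limma adjusted p = 0.337). Hsd11b1, which reactivates glucocorticoids, measured 0.849 ± 0.353 and 0.644 ± 0.275 RPKM (n = 3 each) and Hsd17b11 2.33 ± 0.527 and 2.68 ± 0.210 RPKM, while Hsd3b7, an enzyme of bile acid synthesis, had a log2 difference of -0.11 ± 0.12. Among 4 tested aldo-keto reductases outside the cluster 3 were above 0 and 1 below (median 0.08), 2 had an unadjusted p under 0.05, and Akr1b8, Akr1a1 and Akr7a5 had groups that did not overlap, the last of them lower. Akr1b8 measured 4.70 ± 0.233 and 5.82 ± 0.782 RPKM (n = 3 each; log2 difference 0.27 ± 0.10, limma adjusted p = 0.412). Akr7a5 measured 5.88 ± 0.0564 and 5.23 ± 0.149 RPKM (limma adjusted p = 0.423), Akr1a1, the abundant aldehyde reductase gene, 224 and 236 RPKM (0.654), and Akr1b10 5.73 and 6.07 RPKM (0.915). Of 3 tested genes of steroid conjugation 1 was above 0 and 2 below (median -0.01). Arsa, a sulfatase gene, had a log2 difference of -0.09 ± 0.09 and Sult2b1, a sulfotransferase gene, one of -0.01 ± 0.08.

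Srd5a3 was set beside a list of genes of the 5-alpha reductase family and of dolichol synthesis. Of its 8 tested genes, which include Tecr of the reductase family, 3 were above 0 and 5 below, with a median log2 difference of -0.02. Alg5, which charges dolichol phosphate with glucose, measured 39.4 ± 1.94 and 36.2 ± 1.38 RPKM (n = 3 each) without overlap (log2 difference -0.12 ± 0.05, limma adjusted p = 0.492). Dolpp1, a dolichyl pyrophosphate phosphatase gene, Dolk, the dolichol kinase gene, and Nus1, a subunit of the enzyme that builds the polyprenol chain, had log2 differences of -0.04 ± 0.06, 0.05 ± 0.09 and 0.03 ± 0.05.

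Among steroid receptor genes, nuclear and membrane ones were listed. Pgr, the nuclear progesterone receptor gene, was listed at 0 in every sample. Paqr8, a membrane progestin receptor gene, measured 13.3, 13.2 and 12.6 RPKM in vehicle 3, 4 and 7 and 10.5, 10.8 and 10.3 RPKM in pemafibrate 3, 7 and 8. All treated samples lay below all vehicle samples, and the log2 difference was -0.29 ± 0.05. It missed the threshold with limma (adjusted p = 0.0648) and passed it with voom on whole reads (adjusted p = 0.00989). Nr3c1, the glucocorticoid receptor gene, measured 7.16 ± 0.434 and 6.76 ± 0.0910 RPKM, lower without overlap (n = 3 each, limma adjusted p = 0.791), Nenf, a gene of the same protein family as Pgrmc1, 18.2 and 19.5 RPKM (0.827), and Pgrmc1 itself 27.4 and 27.7 RPKM (0.968). Of 7 tested receptor genes 3 were above 0 and 4 below, with a median of -0.01.

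Genes known to respond to glucocorticoids or progestins did not move one way. Of 13 tested, 6 were above 0 and 7 below, with a median log2 difference of -0.0074. Sgk1, a kinase gene induced by glucocorticoids, measured 20.9 ± 0.758 and 24.1 ± 0.721 RPKM (n = 3 each) without overlap (log2 difference 0.20 ± 0.05, limma adjusted p = 0.157). Il7r, the interleukin 7 receptor gene, measured 42.6 ± 2.01 and 36.4 ± 2.46 RPKM (n = 3 each, limma adjusted p = 0.225), lower without overlap. Tsc22d3, the glucocorticoid-induced leucine zipper gene, measured 6.35 and 5.99 RPKM, also lower without overlap (limma adjusted p = 0.770), and Tle1, a corepressor gene, 2.74 and 2.99 RPKM (0.776).

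Interleukin 3 and type 2 cytokine genes were given with the members because of the known link of Akr1c18 to interleukin 3 and of Cyp11a1 to Th2 cells. Il3 measured 1.04, 0.551 and 2.04 RPKM in vehicle 3, 4 and 7 and 1.99, 1.02 and 0.867 RPKM in pemafibrate 3, 7 and 8. Its groups overlapped, with vehicle 7 and pemafibrate 3 the high samples. Il3ra, the receptor's alpha chain, measured 8.97 ± 0.351 and 8.29 ± 0.820 RPKM (n = 3 each), while Csf2rb stayed between 0.291 and 0.580 RPKM. Gata3, the Th2 regulator gene, measured 1.87, 2.29 and 1.85 RPKM in vehicle 3, 4 and 7 and 2.41, 2.81 and 2.98 RPKM in pemafibrate 3, 7 and 8 (log2 difference 0.37 ± 0.11, limma adjusted p = 0.309). Il4ra, the interleukin 4 receptor gene, had a log2 difference of -0.08 ± 0.05 and the cytokine gene Il13 of -0.23 ± 0.20, and Il5 was at most 0.0436 RPKM. Of 9 tested genes 6 were above 0 and 3 below, with a median of 0.03.

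**Figure D4:**
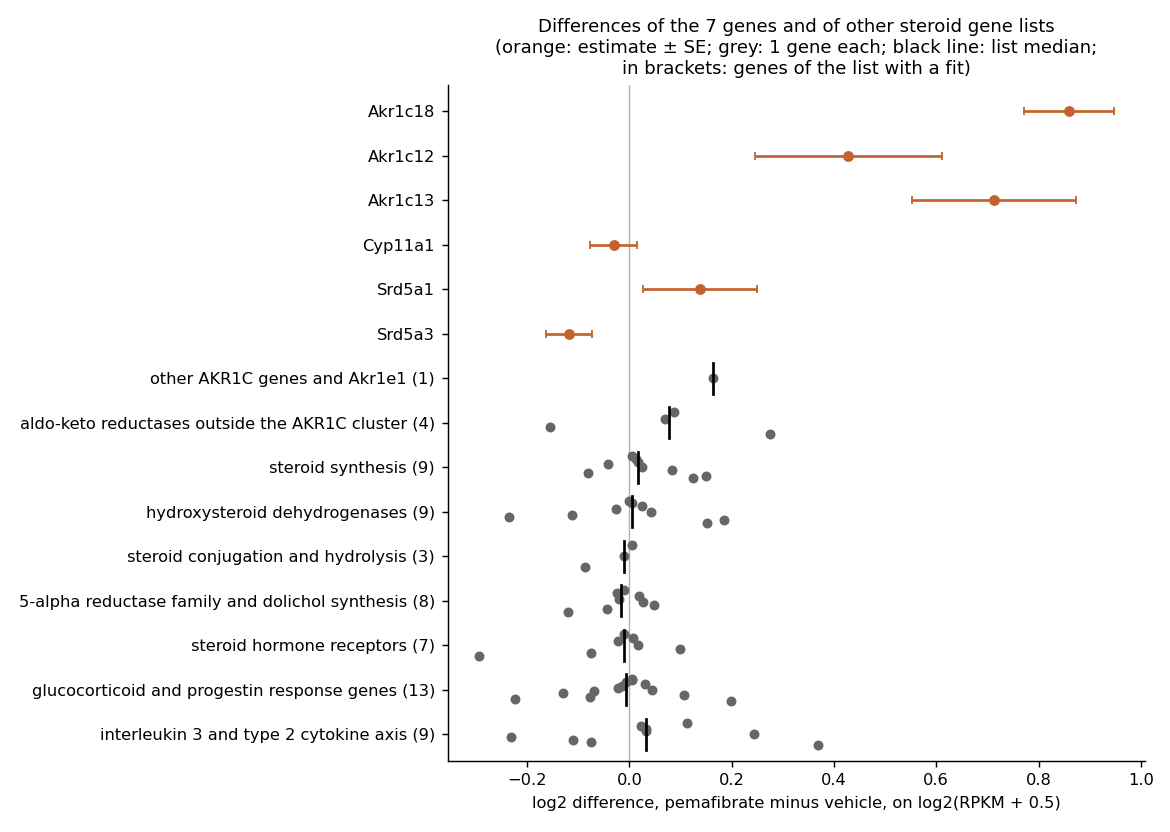
Log2 differences (pemafibrate minus vehicle, on log2(RPKM + 0.5)) of the 6 members with a fit, as estimate ± SE (orange), and of the tested genes of 9 lists, 1 point per gene, with the list median in black. Akr1c18 at 0.86 and Akr1c13 at 0.71 lie to the right of every listed gene, the highest of which is Gata3 at 0.37, and the list medians lie between -0.02 and 0.16. The members were chosen by this comparison, so their place relative to the lists is only a description.

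The genes whose pattern over the 6 samples was most like that of Akr1c18 were looked up among 8197 others with a mean of at least 5 RPKM, by Pearson's r of log2(RPKM + 0.5). They were Atp8b2 (r = 0.995), Cct3 (0.992), Snora17 (0.990), Gm8615 (0.990) and Ccr6 (0.990). The genes with the most opposite pattern were Lgr4 (-0.994), Dst (-0.992) and Ern1 (-0.992). These r rest on 6 samples in which the groups do not overlap, so they mostly follow the step between the groups, and they do not measure its size: Cct3, a chaperonin subunit gene, measured 235 to 245 RPKM in vehicle and 256 to 257 RPKM in pemafibrate. Among the members, r with Akr1c18 was 0.883 for Akr1c13, 0.859 for Akr1c12, 0.693 for Srd5a1, -0.324 for Cyp11a1 and -0.937 for Srd5a3.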

How the data were processed

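The authors deposited RPKM for 24421 genes in 6 samples, with log2 fold changes of their own, p-values, adjusted p-values and a rank, per the file headers; the last 3 were not used. A stranded mRNA kit was used on 1.0 µg of RNA, per the labels' protocols. Per the submitters' processing notes, which give no roles, edgeR, featureCounts 1.4.6, HISAT2 2.1.0, Trimmomatic 0.35 and bcl2fastq were used with builds GRCm38 and mm10. Annotation and strand setting are not given in the sources used here. Levels of overlapping genes and near-identical copies are therefore uncertain.

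Groups follow the treatment labels. Members and gene lists were chosen with earlier results of these data known. The 11360 genes averaging 0.5 RPKM or more were fitted on log2(RPKM + 0.5) with limma 3.58.1 (R 4.3.3, trend in the prior variance) over all 6 samples, calling genes at a Benjamini-Hochberg adjusted p under 0.05. The RPKM steps gave whole reads for all 16822 genes above 0 (100% of values within a relative tolerance of 1e-06), used for voom (mean of at least 10 reads) and for Poisson intervals, which cover counting error only. Each replicate pair differed by more than sampling noise (chi-square per degree of freedom 2.78 to 8.27). The fit was also tested on simulated data, in which every gene had the same spread beyond counting noise. That test does not show how the fit performs on the real samples.

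Named genes are the 7 members, up to 4 genes with the smallest p in each list, the 5 genes most like Akr1c18 and the 3 most unlike it, and the neighbours of the cluster; other genes named were chosen after their values were seen. RefSeq held all 7 members. Open reading frames and shared windows come from GENCODE M21, from 1 protein-coding transcript per gene, that with the longest frame, aligned with Biopython 1.88; figures used matplotlib 3.10.9 (Python 3.11.15). Alternatives were other pseudocounts, filters and scalings, array weights, the title number as a block, voom, and leaving out each sample.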

Additional observations from a re-analysis of the deposited data

How the results depend on the processing

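Akr1c18 kept a log2 difference of 0.77 to 0.96 in all 15 alternatives and Akr1c13 one of 0.59 to 0.87. Akr1c12 ran from 0.30 to 0.73 in 14, the highest with voom on the recovered reads (0.73 ± 0.32, SE); it was 0.30 with a pseudocount of 1 and 0.64 with one of 0.1, so the value of this low gene depends on the pseudocount. Srd5a1 ran from 0.08 to 0.21, Srd5a3 from -0.13 to -0.10 and Cyp11a1 from -0.06 to 0.02. The filter at 2 RPKM leaves out Akr1c12 and Srd5a1. The value that chose Akr1c18 passed in 10 of 15 alternatives (limma or voom adjusted p from 0.000107 to 0.137). It did not pass with no filter (0.0858), with the replicate block (0.137), without vehicle 3 (0.0915), without pemafibrate 7 (0.0901) or without pemafibrate 8 (0.0579). The count of 40 genes called among all genes was 7 with no filter, 140 with array weights, 148 with voom and 0 to 25 when a sample was left out: 0 without pemafibrate 7 (771 at an unadjusted limma p under 0.05), 2 without vehicle 3, 8 without vehicle 4, 15 without pemafibrate 8, 18 without vehicle 7 and 25 without pemafibrate 3. With the replicate block limma called 0 genes, with 653 at an unadjusted p under 0.05. Only 2 title numbers are shared, so vehicle 4 and pemafibrate 8 did not inform the difference in that fit. It also left few residual degrees of freedom. The deviations of same-numbered samples correlated at 0.03 and -0.0083, and those of differently numbered samples of the 2 groups at -0.22 to 0.20. The labels do not say that a number pairs samples. In the receptor list array weights and voom called 1 gene each, Paqr8, as lower; no alternative called a gene of the other lists. Akr1c12, with 10 to 26 reads, is the member most limited by depth.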

Other observations

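Dpm1, a widely expressed gene of dolichol phosphate mannose synthesis, was at most 0.383 RPKM and shares 895 exon bases with another annotated gene, Gm20716, so its level here is uncertain.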
